A study of Homo sapiens with 18 samples.

Results

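The APOBEC3 genes described here are APOBEC3B, APOBEC3C, APOBEC3F, APOBEC3G and APOBEC3H, 5 of the 22027 features listed in RNA sequencing of LNCaP cells, a human prostate cancer line. They were taken by gene symbol, and the set was chosen by the level of APOBEC3H, which was high in cells given UPF1069, so that every APOBEC3 value of UPF1069 against DMSO below is a description with no test. All 5 are listed in the inhibitor table of 21391 features and 4 in the siRNA table of 18350 features, where APOBEC3C was not analysed. In the inhibitor experiment cells received 10 uM of UPF1069, olaparib or veliparib, or the solvent DMSO, for 24 h. The siRNA experiment used siPARP1_A, siPARP1_B, siPARP2_A and siPARP2_B, directed to PARP1 or PARP2, and the control siNC, each transfected 72 h before harvest. Each of the 9 groups has 2 libraries, named biological duplicates by the series, all from the same unedited line. UPF1069 is sold as an inhibitor of PARP2, and olaparib and veliparib inhibit both PARP1 and PARP2, the enzymes that build ADP-ribose chains at DNA breaks.

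APOBEC3 enzymes convert cytosine to uracil in single-stranded DNA, and they restrict retroviruses and mobile elements by mutating or blocking their DNA copies. APOBEC3B is largely nuclear and is known as a source of C-to-T mutation in tumour genomes; APOBEC3F and APOBEC3G are cytoplasmic and act mainly on retroviral DNA; APOBEC3C and APOBEC3H are smaller enzymes with a single deaminase domain. The genes lie side by side on chromosome 22. In RefSeq the order runs APOBEC3A, APOBEC3B, APOBEC3C, APOBEC3D, APOBEC3F, APOBEC3G and APOBEC3H, followed after a pseudogene by CBX7. The paralogs share long stretches of near-identical sequence, so reads of APOBEC3A and APOBEC3B, or of APOBEC3D, APOBEC3F and APOBEC3G, could have been split or lost in the authors' counting. APOBEC3B also has an antisense gene, and the strand setting of the counting is not given in the sources used here, so that reads of the pair cannot be told apart.

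The sequence shown is the 250 bases before the annotated start of APOBEC3H, the gene on which the results turn, on the plus strand at chr22:39096994-39097243 of GRCh38.p14 (RefSeq). A promoter window was found for 1 of the 5 genes. The whole window, 300 bases that run on past the start, was searched on both strands for the p53 half-site and full site, TTTGAA of the cell cycle homology region, the interferon-stimulated response element, the interferon gamma-activated site, the NF-kB consensus and the AP-1 site. It held 0 perfect matches to any of them, and for that reason no letter is in capitals.
APOBEC3H upstream window: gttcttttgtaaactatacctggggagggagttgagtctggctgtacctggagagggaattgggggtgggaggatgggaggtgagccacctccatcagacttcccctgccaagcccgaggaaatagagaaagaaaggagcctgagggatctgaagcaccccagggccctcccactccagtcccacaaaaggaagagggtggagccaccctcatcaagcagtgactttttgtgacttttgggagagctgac
Among all 35116 RefSeq promoters, in windows of 300 bases, 6.63% held a p53 half-site, 0.0285% a p53 full site, 15.2% TTTGAA, 3.57% the interferon-stimulated response element, 7.66% the gamma-activated site, 5.91% the NF-kB consensus and 7.71% the AP-1 site. The lack of a match says only that these letters are not in this window.

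The libraries held 26.43 to 35.70 M reads in the inhibitor table and 15.45 to 18.62 M reads in the siRNA table. Values are counts per M reads (CPM) in the inhibitor table and normalised reads per M in the siRNA table. The tables were normalised apart, and no level is compared across them. All 7 prostate luminal markers described here, among them KLK3 and KRT8, averaged at least 1 in both tables. The listed markers of T and NK cells and of myeloid cells stayed at or below 0.347 in every library. Those of B cells did so in the inhibitor libraries, and 0 of 4 B cell markers were listed in the siRNA table. The siRNAs lowered their targets: PARP1 was at 4.78 and 5.67 with siPARP1_A and 8.99 and 9.05 with siPARP1_B, against 451.7 and 479.1 with siNC. PARP2 was at 3.06 and 2.56 with siPARP2_A and 1.78 and 1.01 with siPARP2_B, against 28.96 and 25.8 with siNC. siPARP2_B libraries also had less PARP1, 160.5 and 144.8, and this holds for every siPARP2_B value below. The other siRNAs also lay below both siNC libraries in the gene they were not directed to. PARP1 was at 409.1 and 394.6 with siPARP2_A. PARP2 was at 22.1 and 20.9 with siPARP1_A and 19.8 and 17.96 with siPARP1_B.

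A gene was called changed when limma's test, fitted on all groups of a table and adjusted over all genes tested, gave an adjusted p under 0.05. Fold changes are log2 differences of value + 1, which understate the change of weak genes. The p-values rest on the spread between duplicates of all groups of a table, drawn toward a trend over all genes. They do not measure the spread of the compared duplicates alone. An exact permutation test of 2 against 2 libraries could not go below 0.333. Only APOBEC3B and APOBEC3F had a mean of at least 1 in both tables, at 19.3 and 5.94 CPM in the inhibitor table and 7.54 and 1.53 normalised reads per M in the siRNA table. APOBEC3H passed in the inhibitor table through the UPF1069 libraries, with a mean of 1.45 CPM over the table and 0.791 CPM without UPF1069, and it missed the limit in the siRNA table at 0.871. APOBEC3C (0.512 CPM) and APOBEC3G (0.471 CPM and 0.156 normalised reads per M) did not pass. For these weak genes the same test was run with no filter, and read counts are given.

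APOBEC3B supplied most of the reads of the set. Per kilobase of the longest GENCODE transcript its level with UPF1069 was 14.5 CPM, with olaparib 6.97, with veliparib 9.62 and with DMSO 10.8. APOBEC3H came next per kilobase with UPF1069, at 3.27 CPM, and after APOBEC3F in the other groups, at 0.665 CPM with olaparib, 1.12 with veliparib and 0.477 with DMSO. APOBEC3F stood at 2.44 CPM per kilobase with UPF1069, 2.21 with olaparib, 2.04 with veliparib and 2.14 with DMSO. In the siRNA table APOBEC3H exceeded APOBEC3F per kilobase with siPARP1_A, at 2.07 against 0.6996 normalised reads per M, and with siPARP2_B, at 1.28 against 0.826. It also did so with siPARP1_B, at 0.486 against 0.378, on 15 and 30 reads. It did not with siPARP2_A, at 0.209 against 0.461, or with siNC, at 0.121 against 0.480. APOBEC3H made up 8.96% of the reads of the 5 genes with UPF1069, against 1.89% with DMSO. With the siRNAs it made up 16.3% of the reads of the 4 listed genes with siPARP1_A and 18.1% with siPARP2_B, against 1.45% with siNC. The APOBEC3B share was 68.4% with siPARP1_A and 48.4% with siPARP2_B, against 82.2% with siNC.

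**Figure D1:**
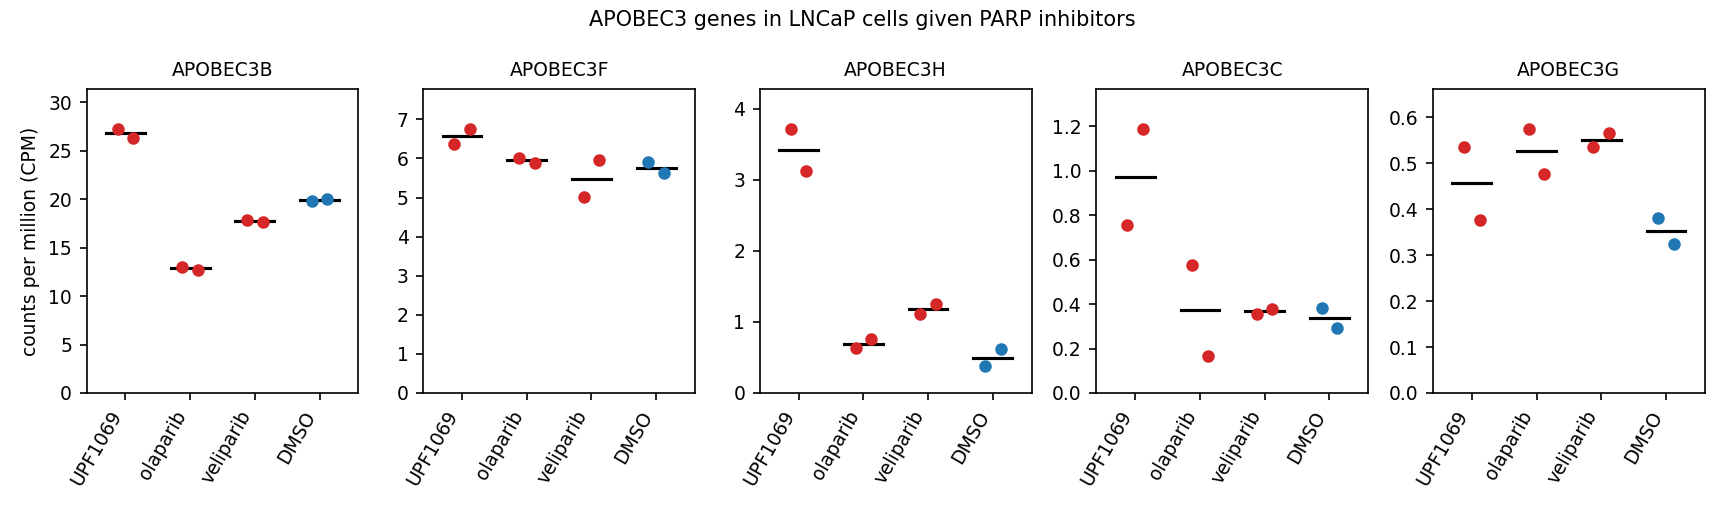
Level of each APOBEC3 gene (counts per M reads, linear axes from 0, a scale per gene) in the 8 inhibitor libraries. Points are libraries and bars the means of 2. APOBEC3H lies at 3.13 and 3.72 CPM with UPF1069 and at most at 1.25 CPM in the other libraries, and APOBEC3B is lowest with olaparib.

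APOBEC3H, the single-domain enzyme at the end of the cluster, had 3.72 and 3.13 CPM (118 and 100 reads) with UPF1069. It had 0.636 and 0.757 CPM (21 and 27 reads) with olaparib, 1.11 and 1.25 CPM (31 and 33 reads) with veliparib, and 0.380 and 0.618 CPM (11 and 21 reads) with DMSO. Both UPF1069 libraries lay above all others, and the order of the means ran from UPF1069 through veliparib and olaparib to DMSO, with no overlap between neighbours. The difference between UPF1069 and DMSO, which chose the gene, was 1.56 on the log2 scale, and the reads stood in a ratio of 6.73. In bulk RNA, more cells expressing a gene and more RNA per cell cannot be told apart.

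Because APOBEC3H passed the filter only through UPF1069, it is left out of the counts of genes called below, and its comparisons of the other groups are given with no filter. With veliparib, APOBEC3H was 0.54 ± 0.12 higher than with DMSO (SE, n = 2 libraries each, limma adjusted p = 0.00213 with no filter, where 23.5% of all features were called). The ratio of reads was 2.31, with a 95% counting interval of 1.49 to 3.65. With the filter, the call was lost without DMSO replicate 1, at a difference of 0.43 and a limma adjusted p of 0.0538. With olaparib the difference from DMSO was 0.18 ± 0.12 and did not pass (limma adjusted p = 0.284 with no filter). Between the inhibitors, olaparib stood at -0.36 ± 0.12 against veliparib (limma adjusted p = 0.0221 with no filter, 39.1% of features called). With the filter, that call was lost without olaparib replicate 1 (adjusted p = 0.136), without veliparib replicate 2 (0.0996) and with DESeq2 (0.0779).

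APOBEC3B, the nuclear deaminase, had 27.3 and 26.3 CPM with UPF1069, 13.04 and 12.66 CPM with olaparib, 17.9 and 17.6 CPM with veliparib, and 19.8 and 20.0 CPM with DMSO. The 4 groups did not overlap, and their order from high to low was UPF1069, DMSO, veliparib, olaparib. APOBEC3B fell with olaparib, by a log2 fold change of -0.59 ± 0.06 against DMSO (SE, n = 2 each, limma adjusted p = 6.17e-08). It was the 1 called there of the 2 genes APOBEC3B and APOBEC3F, where 52.5% of all genes were called. All 16 settings tried kept this call, with log2 fold changes from -0.64 to -0.56. The veliparib difference of -0.16 ± 0.06 missed the threshold (limma adjusted p = 0.0516) and passed it with the filter at a mean of at least 2 (0.0457). Against DMSO, limma called 0 of the 2 genes with veliparib, where 40.4% of all genes were called. Of the 2, 1 had an unadjusted p under 0.05, and edgeR and DESeq2 called 0. UPF1069 lay 0.41 above DMSO on the log2 scale.

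The inhibitors differed from each other in APOBEC3B at the same dose and time, and the p-values here are adjusted over all genes of each of 3 comparisons. The UPF1069 libraries are those whose APOBEC3H level chose the set. APOBEC3B had a correlation of 0.733 with APOBEC3H over the inhibitor libraries. The p-values of UPF1069 against the other inhibitors, here and below, may therefore carry that choice. With UPF1069, APOBEC3B was 1.005 ± 0.064 higher than with olaparib (limma adjusted p = 1.35e-11) and 0.57 ± 0.06 higher than with veliparib (adjusted p = 2.04e-07). Olaparib was 0.44 ± 0.06 below veliparib (log2 fold change -0.44, adjusted p = 4.00e-06). The shares of all genes called in these comparisons were 51.2%, 50.8% and 59.5%. Of APOBEC3B and APOBEC3F, 1 of 2 was called in each. The sum of the luminal markers was 2860 to 2874 CPM with olaparib, against 4147 to 4225 CPM with DMSO. Its part in the APOBEC3B difference was not tested.

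APOBEC3F, a cytoplasmic antiretroviral enzyme, had 6.37 and 6.76 CPM with UPF1069, 6.02 and 5.88 CPM with olaparib, 5.002 and 5.963 CPM with veliparib, and 5.91 and 5.62 CPM with DMSO. The veliparib libraries spanned those of DMSO and overlapped those of olaparib, and the UPF1069 libraries lay above the rest. No tested comparison of the inhibitors called it. The differences from DMSO were 0.04 with olaparib (95% interval -0.16 to 0.24) and -0.07 with veliparib (-0.26 to 0.13). UPF1069 was 0.12 above olaparib (limma adjusted p = 0.307) and 0.23 above veliparib (adjusted p = 0.0542), and 0.16 above DMSO. Without veliparib replicate 2 the difference of UPF1069 from veliparib was 0.33 and passed (adjusted p = 0.00928).

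APOBEC3C, a single-domain enzyme, was weak, with 24 and 38 reads (0.757 and 1.19 CPM) with UPF1069, 19 and 6 reads (0.575 and 0.168 CPM) with olaparib, 10 and 10 reads (0.357 and 0.377 CPM) with veliparib and 11 and 10 reads (0.380 and 0.294 CPM) with DMSO. Both UPF1069 libraries were above all others. With no filter, UPF1069 was 0.53 ± 0.12 above olaparib (limma adjusted p = 0.00209) and 0.52 ± 0.12 above veliparib (adjusted p = 0.00257), where 32.6% and 31.5% of all features were called. The ratios of reads were 2.68 (counting interval 1.66 to 4.45) and 2.65 (1.58 to 4.64). Both calls were lost without UPF1069 replicate 2 (adjusted p = 0.0590 and 0.0687), and the first also without olaparib replicate 2 (0.106) and with DESeq2 (0.0555). The difference of UPF1069 from DMSO was 0.55 on the log2 scale.

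APOBEC3G, the enzyme through which the family's action on HIV was found, had 12 to 17 reads with UPF1069, 17 to 19 with olaparib, 15 in each veliparib library and 11 in each DMSO library. Its levels ran from 0.324 to 0.575 CPM over the 8 libraries. In the siRNA table it had 1 to 7 reads in a library. No tested comparison called it with no filter, and its lowest limma adjusted p was 0.145, for veliparib against DMSO, at a log2 difference of 0.20. APOBEC3A and APOBEC3D, which the rule left out, had 0 to 5 and 0 to 10 reads in an inhibitor library.

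**Figure D2:**
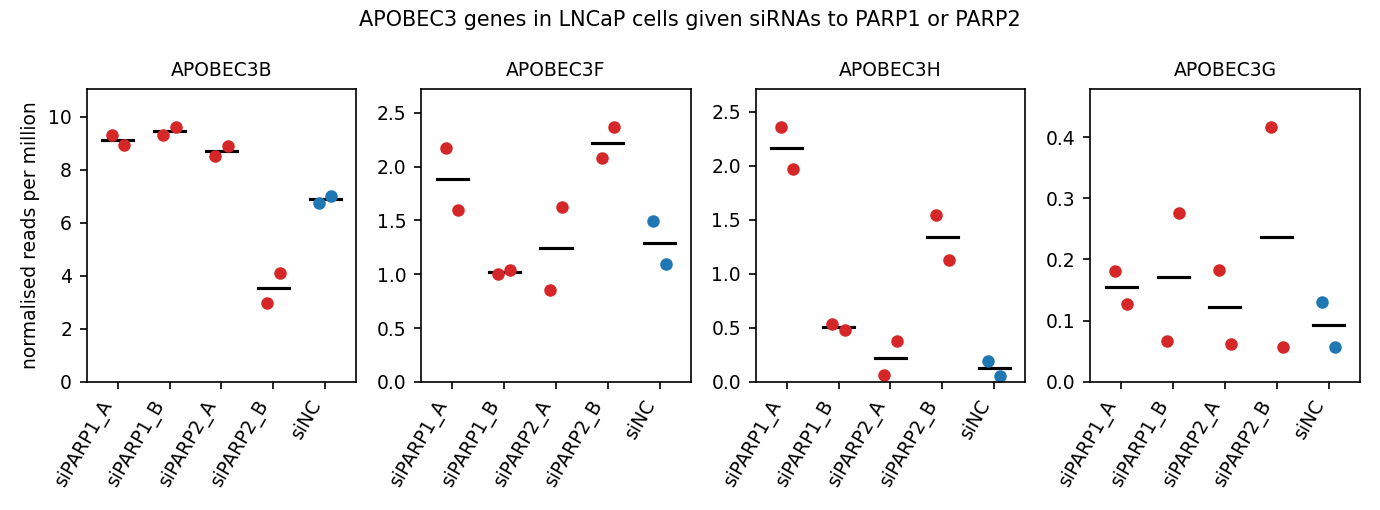
Level of the 4 listed APOBEC3 genes (normalised reads per M, linear axes from 0, a scale per gene) in the 10 siRNA libraries. Points are libraries and bars the means of 2. APOBEC3H lies at 1.97 and 2.36 with siPARP1_A and at 1.13 and 1.55 with siPARP2_B, and at most at 0.533 in the other libraries.

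In the siRNA libraries, whose values the rule did not use, APOBEC3H differed between siRNAs to the same target. It had 39 and 31 reads (2.36 and 1.97 normalised reads per M) with siPARP1_A and 8 and 7 reads (0.533 and 0.484) with siPARP1_B. It had 1 and 6 reads (0.0612 and 0.375) with siPARP2_A, 26 and 20 reads (1.55 and 1.13) with siPARP2_B, and 3 and 1 reads (0.195 and 0.0574) with siNC. The order ran from siPARP1_A through siPARP2_B and siPARP1_B to siPARP2_A and siNC, and only the last pair overlapped.

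APOBEC3H rose with siPARP1_A by 1.49 ± 0.16 against siNC (SE, n = 2 each, limma with no filter, adjusted p = 2.71e-08). It rose with siPARP2_B by 1.05 ± 0.16 (adjusted p = 3.39e-06). The edgeR quasi-likelihood test on reads gave log2 fold changes of 4.06 (adjusted p = 2.74e-08) and 3.36 (adjusted p = 4.52e-06) on 70 and 46 reads against 4 with siNC. edgeR called 39.8% of features with siPARP1_A and 9168 of 18350 with siPARP2_B. The ratios of reads were 17.8 with siPARP1_A, with a counting interval of 6.66 to 67.2, and 10.9 with siPARP2_B, with an interval of 3.99 to 41.8. With no filter, 39.6% and 49.5% of all features were called in these comparisons. Both calls held in all 18 settings tried.

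With siPARP1_B the APOBEC3H difference of 0.42 ± 0.16 had a limma adjusted p of 0.0437 with no filter, where 5145 of 18350 features were called. The edgeR test gave a log2 fold change of 1.999 (adjusted p = 0.0404, 27.9% of features called). Leaving out any 1 of the 4 libraries lost the limma call, with adjusted p from 0.0665 to 0.256. The edgeR call was lost without siNC replicate 2 (0.297), siPARP1_B replicate 1 (0.144) or siPARP1_B replicate 2 (0.0994). In all, 7 of 18 settings kept it. With siPARP2_A the difference was 0.10 (adjusted p = 0.673, 95% interval -0.22 to 0.42). Compared with each other, siPARP1_A was 1.07 ± 0.16 above siPARP1_B (adjusted p = 4.48e-06), and siPARP2_A was 0.95 ± 0.16 below siPARP2_B (log2 fold change -0.95, adjusted p = 1.48e-05). With no filter, 40.3% and 48.3% of features were called there. The mean of the siPARP2 siRNAs was -0.38 ± 0.11 against that of the siPARP1 siRNAs (adjusted p = 0.00544, 49.5% called), yet their libraries overlapped. In limma that call was lost without siPARP2_A replicate 1 (0.0539), and DESeq2 did not make it (0.117). In edgeR it was lost without siPARP1_A replicate 1 (0.0649), siPARP1_B replicate 1 (0.0936) or replicate 2 (0.0591), siPARP2_A replicate 1 (0.221) or siPARP2_B replicate 2 (0.0626), so that 19 of 26 settings kept it.

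APOBEC3B was at 9.31 and 8.92 normalised reads per M with siPARP1_A, 9.324 and 9.602 with siPARP1_B, 8.50 and 8.88 with siPARP2_A, 2.97 and 4.11 with siPARP2_B, and 6.75 and 7.01 with siNC. siPARP2_B lay below siNC and the other 3 siRNAs above it, in both libraries of each. The fall with siPARP2_B was -0.81 ± 0.13 on the log2 scale (limma adjusted p = 7.96e-06), at 50 and 73 reads against 104 and 122 reads with siNC. APOBEC3B and APOBEC3F were both called there, 2 of 2 past the filter, where 66.1% of all genes were called.

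The other siRNAs moved APOBEC3B less. It was higher with siPARP1_A by 0.36 ± 0.13 (limma adjusted p = 0.0235) and with siPARP1_B by 0.41 ± 0.13 (adjusted p = 0.0153), the 1 gene called of 2 in each, where 54.4% and 40.4% of genes were called. The first call was lost on leaving out any 1 of the 4 libraries (adjusted p from 0.0585 to 0.111) and the second without siNC replicate 1 (0.0739), siPARP1_B replicate 1 (0.0538) or siPARP1_B replicate 2 (0.0804). DESeq2 called neither, with adjusted p of 0.0838 and 0.0597. With siPARP2_A the difference of 0.30 ± 0.13 did not pass (adjusted p = 0.0631). There limma called 0 of the 2 genes past the filter, against 49.4% of all genes, and 1, APOBEC3B, had an unadjusted p under 0.05 (0.0325). edgeR called 0 with TMM and 1 with RLE, and DESeq2 called 0.

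siPARP2_A was 1.10 ± 0.13 above siPARP2_B in APOBEC3B (limma adjusted p = 6.57e-08, 64.8% of genes called). siPARP1_A and siPARP1_B differed by -0.05 (adjusted p = 0.772, 95% interval -0.32 to 0.22). The mean of the siPARP2 siRNAs was -0.64 ± 0.09 against that of the siPARP1 siRNAs (adjusted p = 1.70e-06, 65.5% called), with siPARP2_A at 8.69 ± 0.27 and siPARP2_B at 3.54 ± 0.81 normalised reads per M (SD, n = 2 each), against 9.11 ± 0.28 for siPARP1_A and 9.46 ± 0.20 for siPARP1_B.

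APOBEC3F had 2.177 and 1.593 normalised reads per M with siPARP1_A, 0.999 and 1.04 with siPARP1_B, 0.856 and 1.63 with siPARP2_A, 2.08 and 2.37 with siPARP2_B, and 1.49 and 1.09 with siNC, from 14 to 42 reads a library. siPARP2_B lay above siNC, and siPARP2_A spanned it. The rise with siPARP2_B was 0.50 ± 0.19 (limma adjusted p = 0.0235). It was lost without siNC replicate 2 (0.177), without siPARP2_B replicate 2 (0.113) and with DESeq2 (0.114). siPARP1_A was 0.51 ± 0.19 above siPARP1_B (adjusted p = 0.0250), the 1 gene of 2 past the filter called there, where 54.8% of genes were called. siPARP2_A was 0.54 ± 0.19 below siPARP2_B (log2 fold change -0.54, adjusted p = 0.0139). The first of these was lost without siPARP1_A replicate 1 (0.214), siPARP1_B replicate 1 (0.0850) or replicate 2 (0.0708), and the second without siPARP2_A replicate 1 (0.252) or siPARP2_B replicate 2 (0.0783). DESeq2 called neither, with adjusted p of 0.136 and 0.0959.

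**Figure D3:**
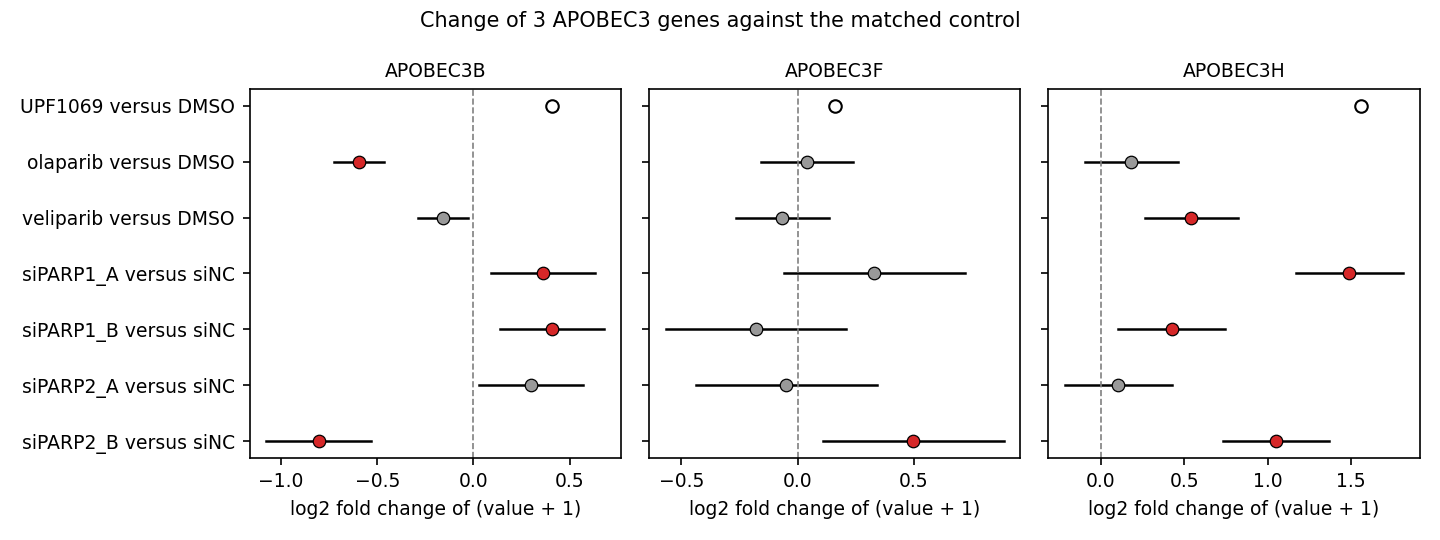
Log2 fold change of value + 1 against DMSO or siNC for APOBEC3B, APOBEC3F and APOBEC3H, with 95% intervals from limma. Red points passed the adjusted threshold, grey points did not, and open points (UPF1069, used to choose the genes) have no test. The APOBEC3H points for olaparib and veliparib come from the fit with the filter, which APOBEC3H passed only through UPF1069. Its siRNA points come from the fit with no filter. With no filter the veliparib difference had a limma adjusted p of 0.00213. APOBEC3B is below 0 with olaparib and siPARP2_B, and APOBEC3H is above 1 with UPF1069, siPARP1_A and siPARP2_B.

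The genes most like each APOBEC3 gene were sought by Pearson correlation of log2 values over libraries, which share treatment, depth and batch, so that the values are descriptions. Over all 18 libraries and 11711 genes, APOBEC3B was most like BTG1 (0.953), an antiproliferative regulator, followed by RALGDS (0.937), TONSL (0.924), which acts at damaged replication forks, STEAP3 (0.922) and WDR62 (0.921). BTG1 itself was at 157 CPM with UPF1069, 76.0 with olaparib and 128 with veliparib, against 135 with DMSO. It was at 54.2 normalised reads per M with siPARP2_B, against 110 with siNC. APOBEC3F was most like HGSNAT (0.893), CHST15 (0.886), MARCHF8 (0.885), PRKD2 (0.882) and OTUB2 (0.879). Over the inhibitor libraries alone these correlations with APOBEC3F were lower, 0.655 for HGSNAT, 0.6999 for CHST15, 0.405 for MARCHF8, 0.850 for PRKD2 and 0.644 for OTUB2, and over the siRNA libraries alone they ran from 0.901 to 0.920.

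APOBEC3H was compared over the 8 inhibitor libraries alone, with 12383 genes. These include the 2 UPF1069 libraries, whose APOBEC3H level chose the set, so genes that are high with UPF1069 are near it by that choice and nothing is read from the values. It was most like ZMAT3 (0.983), a p53-induced RNA-binding protein, DCP1B (0.983), a cofactor of mRNA decapping, KIAA1211 (0.977), FAM118A (0.976) and XPC (0.975), which senses DNA lesions in nucleotide excision repair. ZMAT3 was at 94.9 CPM with UPF1069, against 42.4 with DMSO. In the 10 siRNA libraries the same genes had correlations with APOBEC3H of 0.381 for ZMAT3, 0.637 for DCP1B, 0.582 for KIAA1211, 0.0505 for FAM118A and 0.694 for XPC. ZMAT3 was at 37.3 normalised reads per M with siPARP1_A and 77.0 with siPARP2_B, against 39.8 with siNC. APOBEC3B and APOBEC3H had a correlation of 0.733 over the inhibitor libraries and -0.211 over the siRNA libraries.

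The other genes of the pathway were described by lists of counts. Over all genes tested, the shares that rose and fell were 10.3% and 14.0% with UPF1069 against DMSO (24.3% in either direction), 25.8% and 26.8% with olaparib, and 17.2% and 23.2% with veliparib. They were 25.5% and 28.9% with siPARP1_A against siNC, 16.4% and 23.9% with siPARP1_B, 24.5% and 24.9% with siPARP2_A, and 30.9% and 35.2% with siPARP2_B, and the median over all genes lay between -0.03 and 0.00 in each. p53 target genes, which act in arrest, apoptosis and repair, were called higher with UPF1069 in 25 of 26, with a median of 0.70; nothing is read from list counts in this contrast, which the choice of the set used. CDKN1A, the cell cycle inhibitor, was at 1494 CPM with UPF1069 and 311 with DMSO. With olaparib 8 rose and 8 fell, and with veliparib 17 rose and 4 fell. With siPARP1_A 17 rose and 3 fell (median 0.41), and with siPARP2_B 19 rose and 7 fell (1.01). With siPARP1_B 4 rose and 7 fell, and with siPARP2_A 3 rose and 16 fell (-0.31). CDKN1A was at 835 with siPARP1_A and 1367 with siPARP2_B, and at 142 with siPARP1_B and 176 with siPARP2_A, against 351 with siNC.

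Interferon-stimulated genes, a class to which several APOBEC3 genes belong in immune cells, rose with siPARP2_B in 20 of 21 tested, with a median of 2.81. IFIT1 was at 554 normalised reads per M with siPARP2_B and 4.14 with siNC. With siPARP1_A 8 rose and 3 fell, and ISG15 fell to 28.6 with siPARP1_A, against 59.1 with siNC. With siPARP1_B 1 rose and 9 fell, and with siPARP2_A also 1 rose and 9 fell. Of 19 tested in the inhibitor table, 6 rose and 0 fell with UPF1069, 5 rose and 5 fell with olaparib, and 2 rose and 3 fell with veliparib. Of the other restriction factors of retroviruses and retroelements, 7 of 16 rose and 4 fell with siPARP2_B, 2 rose and 5 fell with siPARP1_A, 0 rose and 7 fell with siPARP1_B, and 4 rose and 8 fell with siPARP2_A. Of 15 in the inhibitor table, 4 rose and 0 fell with UPF1069, 3 rose and 3 fell with olaparib, and 4 rose and 4 fell with veliparib. Among them BST2, which tethers virions, was at 10.4 with siPARP2_B and 1.66 with siNC, and TREX1, a nuclease that clears cytosolic DNA, was at 21.4 with siPARP2_B and 51.2 with siNC.

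G2/M genes, to which APOBEC3B expression has been tied in dividing cells, fell in 30 of 30 with olaparib (median -0.81) and in 30 of 30 with siPARP2_B (-2.49). They fell in 28 of 30 with UPF1069 (-0.53), a contrast from which nothing is read. With veliparib 5 rose and 8 fell, with siPARP1_A 15 rose and 1 fell, with siPARP1_B 6 rose and 4 fell, and with siPARP2_A 8 rose and 5 fell. TOP2A was at 4.50 normalised reads per M with siPARP2_B and 86.4 with siNC. The part of the cell cycle and of interferon genes in the APOBEC3 values was not tested.

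**Figure D4:**
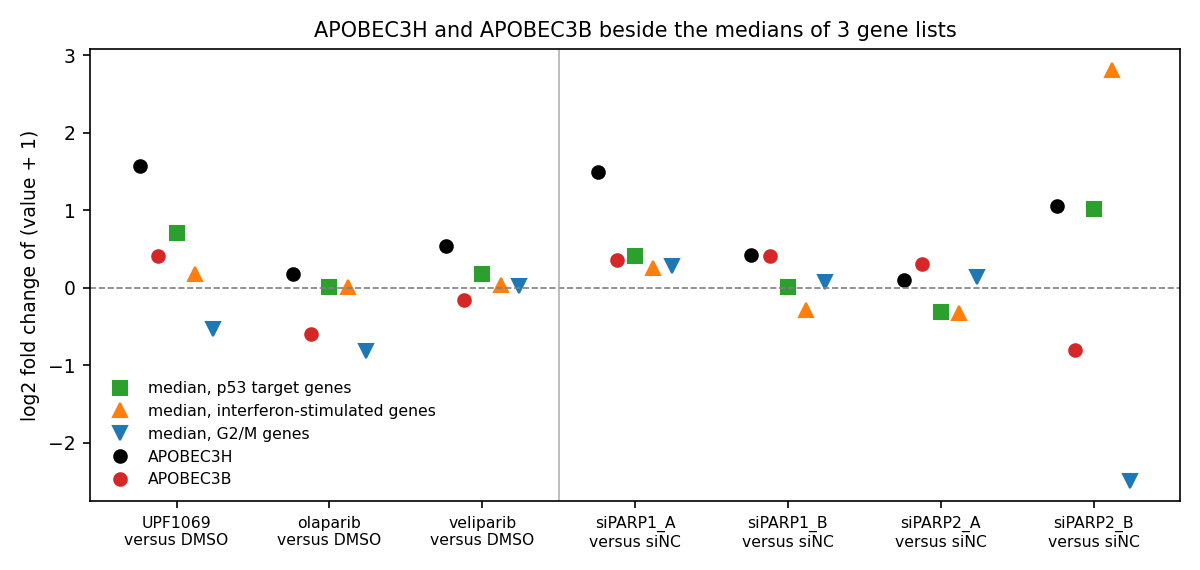
Log2 fold change of APOBEC3H and APOBEC3B beside the median log2 fold change of p53 target, interferon-stimulated and G2/M genes, for each treatment against DMSO (left) or siNC (right). The G2/M median is lowest with siPARP2_B at -2.49 and the interferon median highest there at 2.81.

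Uracil excision and repair, the route that removes the product of APOBEC3 enzymes, held 18 genes, all tested in both tables. UNG, the main uracil glycosylase, was at 56.1 CPM with olaparib against 75.7 with DMSO (log2 fold change -0.43, limma adjusted p = 1.62e-07). It was at 9.24 normalised reads per M with siPARP2_B against 79.4 with siNC (-2.97, adjusted p = 2.35e-21). TDG, a glycosylase for mismatched thymine and uracil, was at 216 with siPARP1_A and 242 with siPARP2_A, against 106 with siNC. Over the list, 4 rose and 1 fell with UPF1069, 2 rose and 8 fell with olaparib and 3 rose and 4 fell with veliparib. With the siRNAs 3 rose and 7 fell with siPARP1_A, 3 and 5 with siPARP1_B, 7 and 3 with siPARP2_A, and 6 and 6 with siPARP2_B. ADAR, which deaminates adenosine in RNA, was at 369 with siPARP2_B (adjusted p = 4.31e-05) and 218 with siPARP2_A (1.21e-07), against 301 with siNC.

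Genes around the cluster changed in both directions. Of 18 neighbours tested, 3 rose and 2 fell with UPF1069, and CBX7, the next gene with a protein product after APOBEC3H, was at 36.2 CPM with UPF1069 against 31.1 with DMSO. With olaparib 3 rose and 5 fell. With veliparib 1 rose and 11 fell, with a median of -0.15. Of 17 tested in the siRNA table, 2 rose and 5 fell with siPARP1_A, and 3 rose and 7 fell with siPARP1_B. With siPARP2_A 3 rose and 8 fell, and with siPARP2_B 5 rose and 6 fell.

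Myeloid markers summed to 0.410 to 0.720 CPM in UPF1069 libraries, against 0.277 to 0.324 CPM in DMSO libraries, over 5 of 6 markers listed. T and NK markers summed to 0.470 to 0.630 CPM with UPF1069 and 0.441 to 0.484 CPM with DMSO, over 4 of 8 listed. Of the T and NK markers 1 of 8, and of the myeloid markers 1 of 6, were listed in the siRNA table, with no value above 0.245. LCP1 and CORO1A, of 3 genes that mark all leukocytes, averaged at least 1 in both tables. Their list summed to 717 to 738 CPM with UPF1069 against 636 CPM in both DMSO libraries. It summed to 701 to 711 CPM with veliparib and 445 to 460 CPM with olaparib. In the inhibitor libraries LCP1 was never below 442 CPM and CORO1A never above 2.78 CPM. In the siRNA libraries the list summed to 313 to 314 with siPARP1_A and 86.1 to 86.6 with siPARP2_B, against 518 to 519 with siNC. It summed to 727 to 738 with siPARP1_B and 381 to 405 with siPARP2_A. PTPRC had no value above 0.313 in the siRNA libraries. The luminal markers summed to 2941 to 2951 with siPARP1_A and 2336 to 2340 with siPARP2_B, against 5299 to 5652 with siNC. The part of these levels in the APOBEC3H values was not tested.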

How the data were processed

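RNA was sequenced from LNCaP cells given an inhibitor or an siRNA. Per the submitters' processing notes, build hg19, TopHat2 2.1.0, bcl2fastq 2.18, edgeR 3.12.0 and HTSeq 0.6.1 were used, with no role given. As deposited by the authors, the inhibitor table holds CPM and the siRNA table a normalised signal, reads per M of a scaled library size. Whole reads were recovered from the step between values: 100% lay within 0.01 of a whole read. The design allowed for counts; the files hold normalised values, so limma 3.58.1 (trend) was run on log2(value + 1), on 13337 and 12701 genes with a mean of at least 1, all groups of a table in 1 fit, with Benjamini-Hochberg adjustment and a threshold of 0.05. Named genes were the 5 members, the 5 genes most correlated with each that passed the filter, and, of each list, up to 4 called genes with the smallest adjusted p per comparison, of which a selection is given. edgeR 4.0.16 and DESeq2 1.42.0 on recovered reads, other pseudocounts and filters, GC and length correction, a replicate block and leaving out libraries were alternatives. Counting intervals, at 95%, are exact and cover counting error only. Transcript lengths came from GENCODE 29. The method was tested on simulated data. The members and lists were chosen with earlier results of these data known. Of the luminal marker list, 2 genes are not reported here.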

Additional observations from a re-analysis of the deposited data

Results flagged for a closer look

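These results stood out because treatments set against each other differed in a test of the difference itself. Such calls were common. With the filter, limma called 51.2% of all genes for UPF1069 versus olaparib, 50.8% for UPF1069 versus veliparib and 59.5% for olaparib versus veliparib. It called 54.8% for siPARP1_A versus siPARP1_B, 64.8% for siPARP2_A versus siPARP2_B and 65.5% for the siPARP2 mean versus the siPARP1 mean. With no filter the shares ran from 31.5% to 49.5%. Values are log2 differences of value + 1, with the adjusted p of limma given in the report. In APOBEC3B, UPF1069 was 1.005 above olaparib and 0.57 above veliparib, and olaparib stood at -0.44 against veliparib. The UPF1069 libraries are those whose APOBEC3H level chose the set. In APOBEC3C, UPF1069 was 0.53 above olaparib and 0.52 above veliparib. Both calls were lost without UPF1069 replicate 2. The first was also lost without olaparib replicate 2 and with DESeq2 (adjusted p = 0.0555). In APOBEC3H, which passed the filter only through the UPF1069 libraries, olaparib stood at -0.36 against veliparib. That call was lost with DESeq2 (adjusted p = 0.0779) and without olaparib replicate 1 (0.136) or veliparib replicate 2 (0.0996).

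Between siRNAs to the same target, APOBEC3H differed by 1.07 for siPARP1_A against siPARP1_B and by -0.95 for siPARP2_A against siPARP2_B. APOBEC3F differed by 0.51 for siPARP1_A against siPARP1_B and by -0.54 for siPARP2_A against siPARP2_B. Both APOBEC3F calls were lost on leaving out some libraries and with DESeq2 (adjusted p = 0.136 and 0.0959). APOBEC3B differed by 1.10 for siPARP2_A against siPARP2_B. The mean of the siPARP2 siRNAs against that of the siPARP1 siRNAs stood at -0.64 in APOBEC3B and -0.38 in APOBEC3H. The siPARP2 siRNAs were unlike each other. APOBEC3B was at 8.69 with siPARP2_A and 3.54 with siPARP2_B, against 9.11 with siPARP1_A and 9.46 with siPARP1_B. APOBEC3H was at 0.218 and 1.34, against 2.17 and 0.508, in the same order. Its libraries overlapped, and DESeq2 did not call it (adjusted p = 0.117).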

How the results depend on the processing

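The count of APOBEC3 genes called was recomputed under each alternative, with APOBEC3H left out in the inhibitor table. With no filter, in limma or in edgeR with TMM, it was 2 for UPF1069 versus olaparib, UPF1069 versus veliparib, siPARP1_A versus siNC, siPARP1_B versus siNC, siPARP1_A versus siPARP1_B and the siPARP2 mean versus the siPARP1 mean, against 1 with the filter, because more genes were tested. Limma with no filter for the weak genes, and edgeR with no filter, gave 3 for siPARP2_B versus siNC and siPARP2_A versus siPARP2_B, against 2. DESeq2 gave 1 for siPARP2_B versus siNC and siPARP2_A versus siPARP2_B, against 2. It gave 0 for siPARP1_A versus siNC, siPARP1_B versus siNC and siPARP1_A versus siPARP1_B, against 1. In the siRNA table the filter at a mean of at least 2 leaves out APOBEC3F. It gave 1 for siPARP2_B versus siNC and siPARP2_A versus siPARP2_B, and 0 for siPARP1_A versus siPARP1_B. In the inhibitor table that filter keeps APOBEC3B and APOBEC3F. There APOBEC3B was called for veliparib versus DMSO (limma adjusted p = 0.0457), against 0 genes called with the filter at 1. edgeR with RLE gave 1 for siPARP2_A versus siNC, against 0; the cause was not tested. Leaving out 1 library, which leaves 1 in a group, changed the count in some comparisons. These were UPF1069 versus veliparib, siPARP1_A versus siNC, siPARP1_B versus siNC, siPARP1_A versus siPARP1_B, siPARP2_B versus siNC and siPARP2_A versus siPARP2_B. With the filter, limma called 51.2% of all genes for UPF1069 versus olaparib, 50.8% for UPF1069 versus veliparib and 40.4% for veliparib versus DMSO. Against siNC it called 54.4% with siPARP1_A, 40.4% with siPARP1_B, 49.4% with siPARP2_A and 66.1% with siPARP2_B. It called 54.8% for siPARP1_A versus siPARP1_B, 64.8% for siPARP2_A versus siPARP2_B and 65.5% for the siPARP2 mean versus the siPARP1 mean.

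Of the fold changes, 6 reversed, none of them called: APOBEC3F for veliparib versus DMSO (without 1 library, -0.172 to 0.042) and olaparib versus veliparib (-0.0021 to 0.212), both without veliparib replicate 1, APOBEC3F for siPARP2_A versus siNC (-0.299 to 0.202) without siNC replicate 1 or siPARP2_A replicate 1, and APOBEC3H for siPARP2_A versus siNC (-0.083 to 0.291 in limma and -0.914 to 1.78 in edgeR) without siPARP2_A replicate 2. APOBEC3H for UPF1069 versus DMSO ran from 1.12 with a pseudocount of 2 to 2.78 with DESeq2. Over all genes, UPF1069 versus DMSO called 3245 genes, against 2146 with DESeq2, 5041 with only the groups compared and 1575 to 1770 without 1 library. Veliparib versus DMSO called 5387, against 3248 with GC and length correction, 3301 when a replicate block was added and 3560 without DMSO replicate 1. The replicate numbers did not pair the libraries: correlations of their differences between groups ran from -0.141 to 0.115. At 1 to 42 reads a library, depth limits APOBEC3G, APOBEC3C and, in the siRNA table, APOBEC3F and APOBEC3H. It also limits APOBEC3H in the inhibitor libraries other than UPF1069.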
